A study of Mus musculus with 15 samples.

Results

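Chromatin accessibility around 9 genes of the red cell programme was examined in sorted haematopoietic stem cells (HSC) of adult mice. The genes were Gata1, Klf1, Epor, Tfrc, Slc4a1, Ank1, Sptb, Alas2 and Car1, taken by name from 21887 protein-coding genes. Every ATAC-seq peak in a gene body or within 50 kb of it was counted, which gave 23 of 19189 KO peaks, 40 of 28391 KI peaks and 17 of 17316 WT peaks. ATAC-seq uses a transposase that cuts accessible DNA, and a peak is a stretch where cuts pile up. The KO mice were Mx1-Cre+/-;mTORflox/flox, the KI mice Mx1-Cre+/-;mTORflox/knockin and the WT control mice Mx1-Cre-/-;mTORflox/flox. All 3 groups were given poly(I:C), and all carried at least 1 floxed allele of the gene for the kinase mTOR. Cre came from the interferon-responsive Mx1 promoter, which is active in many tissues, so the haematopoietic stem cells were not its sole target. KO and KI carried Cre and WT did not, so Cre and the mTOR alleles cannot be told apart in comparisons with WT. The labels do not give the sequence change of the knock-in allele, the number of animals behind a library or whether animals were pooled. Each genotype had 1 library. No difference below therefore has a replicate check or a test, and each describes these libraries.

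Red cells arise from stem cells through progenitors in which GATA1 and KLF1, a pair of zinc-finger transcription factors, switch on most of the red cell genes. GATA1 binds GATA letters and KLF1 binds CACCC-like letters. Erythropoietin, read by the receptor EPOR, keeps late progenitors alive, and the transferrin receptor TFRC brings in the iron that haem needs. ALAS2 starts haem synthesis in red cell precursors. Band 3 (SLC4A1) exchanges anions across the membrane and is tied by ankyrin (ANK1) to the spectrin skeleton, of which SPTB is the beta chain. Car1 encodes a carbonic anhydrase of red cells. Stem cells are known to hold some of these loci open at low level before commitment.

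The promoter windows below are shown because the lists differed just inside the genes and seldom over the windows themselves. They come from RefSeq (GRCm38.p6, the assembly behind mm10) and run from 250 bases before to 50 bases after an annotated start, in the direction of the gene. Of the 9 genes, 6 had an entry; Slc4a1, Ank1 and Car1 had none. Capitals mark matches, on either strand, to the GATA letters AGATAA or TGATAA and to the CACCC-like letters CCNCNCCC, and matches of one motif may overlap each other.
Klf1, chr8:84901732-84902031, plus strand: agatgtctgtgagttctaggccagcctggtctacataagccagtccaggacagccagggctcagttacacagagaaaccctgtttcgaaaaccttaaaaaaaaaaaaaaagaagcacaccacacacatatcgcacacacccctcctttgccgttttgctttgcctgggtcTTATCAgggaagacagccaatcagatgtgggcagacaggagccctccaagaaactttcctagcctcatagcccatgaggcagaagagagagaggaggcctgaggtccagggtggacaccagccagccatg
Epor, chr9:21963527-21963826, minus strand: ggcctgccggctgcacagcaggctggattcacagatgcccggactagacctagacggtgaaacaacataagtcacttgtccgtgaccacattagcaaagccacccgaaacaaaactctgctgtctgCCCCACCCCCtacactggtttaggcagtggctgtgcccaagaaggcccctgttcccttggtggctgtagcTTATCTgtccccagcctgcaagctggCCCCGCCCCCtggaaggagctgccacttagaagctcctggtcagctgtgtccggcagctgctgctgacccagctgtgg
Alas2, chrX:150547167-150547466, plus strand: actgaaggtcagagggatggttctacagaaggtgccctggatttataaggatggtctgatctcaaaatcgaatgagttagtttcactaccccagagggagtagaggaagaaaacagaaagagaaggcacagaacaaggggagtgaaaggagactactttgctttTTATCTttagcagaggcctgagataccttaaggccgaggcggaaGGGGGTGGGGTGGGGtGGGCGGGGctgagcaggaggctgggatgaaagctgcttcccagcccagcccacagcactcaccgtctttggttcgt
Gata1, chrX:7967861-7968160, minus strand: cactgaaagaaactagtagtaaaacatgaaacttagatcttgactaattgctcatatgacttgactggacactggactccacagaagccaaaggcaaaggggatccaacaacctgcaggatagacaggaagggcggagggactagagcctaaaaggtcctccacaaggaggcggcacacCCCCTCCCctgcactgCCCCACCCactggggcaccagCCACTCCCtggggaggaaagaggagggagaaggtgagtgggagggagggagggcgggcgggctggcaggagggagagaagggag
Tfrc, chr16:32608646-32608945, plus strand: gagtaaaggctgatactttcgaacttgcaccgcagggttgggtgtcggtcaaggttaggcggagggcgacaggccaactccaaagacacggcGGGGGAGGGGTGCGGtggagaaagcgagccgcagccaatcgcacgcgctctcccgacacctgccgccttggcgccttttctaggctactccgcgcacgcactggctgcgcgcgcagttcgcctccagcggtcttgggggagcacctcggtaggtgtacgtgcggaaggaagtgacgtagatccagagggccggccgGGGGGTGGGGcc
Sptb, chr12:76710498-76710797, minus strand: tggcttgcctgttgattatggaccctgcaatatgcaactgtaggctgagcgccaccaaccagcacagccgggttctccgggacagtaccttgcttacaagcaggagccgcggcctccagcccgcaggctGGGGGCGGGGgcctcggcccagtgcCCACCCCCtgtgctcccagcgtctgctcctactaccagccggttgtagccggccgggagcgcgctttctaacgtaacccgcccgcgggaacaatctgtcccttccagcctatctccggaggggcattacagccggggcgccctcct

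The GATA letters were found in the windows of Klf1, Epor and Alas2, once in each, beginning at base 171 in Klf1, base 197 in Epor and base 165 in Alas2, where base 251 is the start. They occurred in 18.6% of all 32851 promoter windows of this length and in 15.9% of the 21263 windows of protein-coding genes. The windows of Gata1, Tfrc and Sptb had no such letters. The CACCC-like letters, which also fit plain GC-rich boxes, were found in every window but that of Klf1 (4 matches in Epor, 4 in Alas2, 3 in Gata1, 5 in Tfrc and 3 in Sptb). They were found in 49.5% of all windows and in 56.6% of those of protein-coding genes. Peaks overlapped the printed Tfrc window in all 3 lists, by 300 bp in KO, 127 bp in KI and 275 bp in WT. No list had a peak over the Klf1, Epor, Alas2, Gata1 or Sptb window. The nearest came in Sptb, where 61 bases separated the window from the KI peak and 146 bases from the WT peak.

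Each peak is described by its width, by the score in the fifth column of the authors' list and by its percentile. The score is the authors' own value and is read as 10 times the negative log10 of the p-value. The percentile is the share of peaks in the same list that score lower, so 90 means a peak stronger than 90% of its own list. Scores and percentiles are not compared between lists, since read depth is unknown and the KI list was the longest. The targeted gene was checked first: Mtor had no peak within 1 kb of its annotated start in KO and had one in KI and in WT. The WT and KO libraries are marked in the labels as re-analysed and the KI library is not, so the KI genotype and any batch cannot be told apart.

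**Figure D1:**
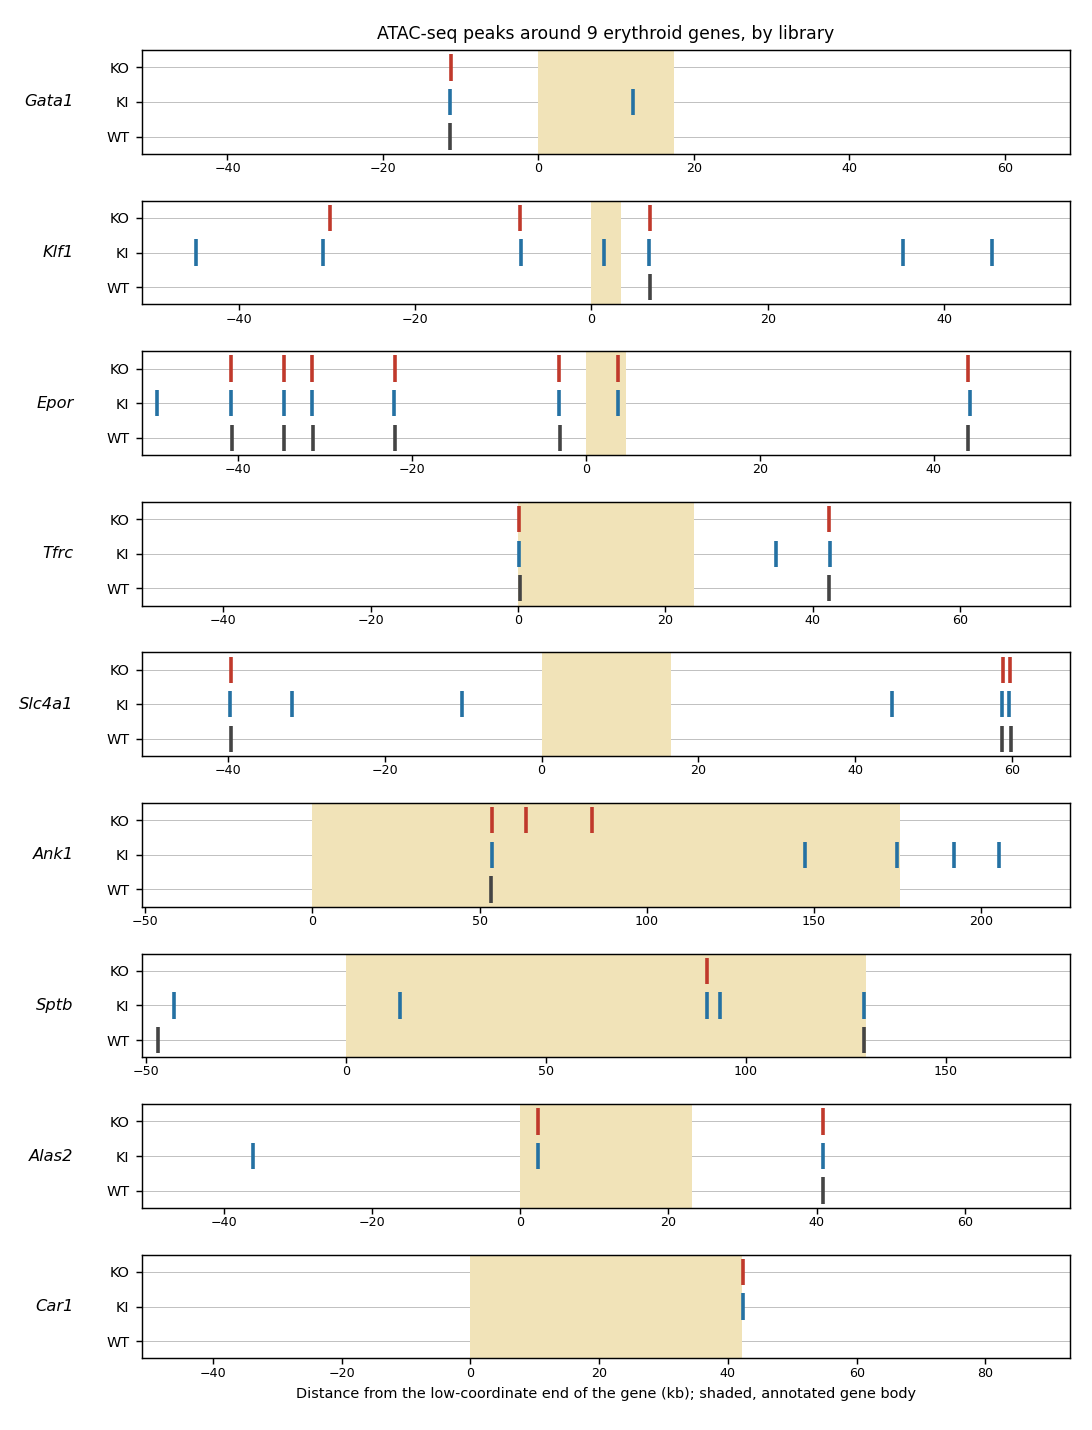
Position of each peak (vertical tick at its centre) in the KO, KI and WT lists around each gene, as distance in kb from the low-coordinate end of the gene, with the annotated body shaded. Of the bodies without a WT tick, those of Epor and Alas2 hold ticks of both mutants and those of Gata1 and Klf1 a KI tick, while the Car1 ticks of KO and KI lie just past the shaded end, which their peaks overlap.

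Merging overlapping peaks gave 43 regions around the 9 genes, of which 14 held a peak in all 3 lists, 5 in KO and KI, 1 in KI and WT, 3 in KO alone, 19 in KI alone and 1 in WT alone. No region held a peak in KO and WT without one in KI. Of all 32764 regions in the genome, 12282 (37.5%) held a peak in all 3 lists, 3502 in KO and KI and 2526 in KI and WT. A further 430 held one in KO and WT, 2619 in KO alone, 9597 in KI alone and 1808 in WT alone. In the gene bodies 12 of 15 regions had no WT peak, and in the flanks 15 of 28 had none, beside 48.0% of all regions in the genome. That share differed by place. Of the 28 flank regions, 18 lay within 1 kb of the start or end of another gene. Of these 18, 1 held peaks in KO and KI, 1 in KO alone and 6 in KI alone, beside 22.2% without WT at starts genome-wide. Of the other 10, 7 held a peak in KI alone, beside 62.1% without WT between genes and 62.9% in bodies. Of the 14 regions shared by all lists, 9 lay within 1 kb of the start or end of another gene, and 2 lay in a body of the 9 genes. Away from any start, 9 of 10 body regions (90%) had no WT peak, beside 62.9% of all 10432 such regions in the genome. Across the genome, too, regions at gene starts were more often shared than those in gene bodies: 67.6% of the regions at starts held a peak in all lists and 22.2% had none in WT, while 20.2% of those in bodies held a peak in all lists.

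KO bodies held 8 peaks in 6 of the 9 genes, KI bodies 13 peaks in 8 genes and WT bodies 3 peaks in 3 genes (Tfrc, Ank1 and Sptb). Across all genes the share with a body peak was 51.6% in KO, 60% in KI and 51.1% in WT. Of the 6 genes without a WT body peak, 3 had one in KO (Epor, Alas2 and Car1), beside 11.7% of all genes without one. In KI it was 5 of the 6, with Klf1 and Gata1 added, beside 21.3%. The 3 genes whose body peak was seen in both mutants and not in WT compare with 9.23% of all genes. These 6 genes were between 3310 and 42152 bp long, and among all genes of that length without a WT body peak the shares were 12.9% in KO and 23.9% in KI. With each list shortened to its 17316 highest-scoring peaks, 3 of the 6 had a body peak in KO and 3 in KI, beside 9.68% and 10.3% of all genes, so the KI count depends on list length. With a minimum score of 100, 1 of the 6 had a body peak in KO and 2 in KI, beside 7.13% and 20.3% of all genes, and 2 of the 3 genes with a WT body peak lacked one in KO, beside 17.0%. In the full lists none of the 3 genes with a WT body peak lacked one in KO or KI, where 10.1% of all genes with a WT body peak lacked one in KO and 2.92% in KI. The 9 genes were chosen with results of these data known, and with 6 genes a single peak moves a share widely.

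**Figure D2:**
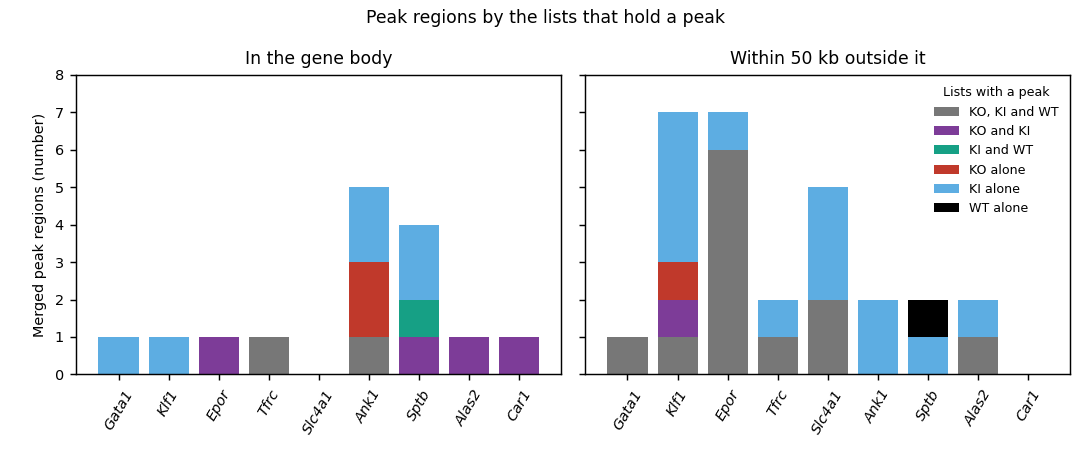
Number of merged peak regions (vertical axis) in the body of each gene (left) and within 50 kb outside it (right), coloured by the lists that hold a peak. Regions shared by all 3 lists are mostly in the flanks, with 6 around Epor. Of the 15 body regions 12 lack WT, beside 48.0% of all regions in the genome.

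The regulators are described first. Klf1 lies on chromosome 8 from 84901982 to 84905291. KI had a peak inside it, from 84903106 to 84903652, which began 1124 bp downstream of the start, was 547 bp wide, scored 207.09 and stood at percentile 81.6. Neither KO nor WT had a peak in Klf1. This was the highest-ranking body peak of the 9 genes in KI. Of the 5229 KI peaks that scored at least as high, 4 (0.0765%) overlapped no peak of either other list, 20 (0.382%) lacked a KO peak and 37 (0.708%) lacked a WT peak. The count of 4 includes this peak, whose own score set the cut. Among KI peaks within 5 percentile points of it, 0.634% lacked both, 3.1% lacked a KO peak and 3.56% a WT peak. The lists show only that no peak was called here in KO and WT.

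The surroundings of Klf1 are gene-dense, and the other peaks there lay at neighbours. At the start of Gcdh, a lysine-degrading mitochondrial dehydrogenase, KO had a peak of score 116.72 (percentile 67.3, 344 bp wide) and KI one of 172.68 (percentile 76.1, 582 bp wide), and WT had none. Among KO peaks within 5 percentile points of this one 11.8% lacked a WT peak, and among such KI peaks 7.78%. At Dnase2a, which encodes a nuclease that macrophages use to degrade the nuclei expelled by red cell precursors, all lists had a peak, of score 74.05 in KO (percentile 37.8), 204.14 in KI (percentile 81.1) and 118.67 in WT (percentile 62.0). KO alone had a peak of 50.07 at Syce2, at percentile 0.1 and so at the calling threshold. KI alone had peaks at Farsa (106.76), near Syce2 (76.1), at Mast1 (52.54) and at Rtbdn (65.95).

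Gata1 lies on chromosome X from 7959260 to 7976663, on the minus strand, and its annotated body reaches upstream of the start at 7967910 used here. KI had 1 peak in the body, from 7971262 to 7971540, which lay 3352 bp upstream of that start. It was 279 bp wide, scored 62.56 and stood at percentile 21.6, among peaks of which 80.8% lacked a WT peak and 66.1% lacked both KO and WT peaks. KO and WT had no peak in Gata1. The other region within 50 kb was the start of Hdac6, a tubulin deacetylase, with peaks in all lists (151.12 in KO, 213.6 in KI and 238.79 in WT, at percentiles 78.5, 82.6 and 89.8 of their own lists). Upstream haematopoietic enhancers of Gata1 are known in the mouse, and their positions were not matched to this peak.

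The receptors differed from each other. Epor lies on chromosome 9 from 21958897 to 21963576, on the minus strand. KO had a peak in it from 21962337 to 21962944 (608 bp wide, score 107.83, percentile 63.0), and KI one from 21962298 to 21962814 (517 bp wide, score 133.31, percentile 66.7). These began 632 bp in KO and 762 bp in KI downstream of the start, beyond the promoter window printed above with its GATA letters. WT had no peak there, although 7 of the 8 regions around Epor had a KO peak, all 8 a KI peak and 6 a WT peak. Among KO peaks of like rank (within 5 percentile points) 15.7% lacked a WT peak, and among such KI peaks 24%.

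Outside the Epor body, 6 of 7 regions had a peak in all lists. A peak in all lists lay past the far end of Epor, 2494 bp from it in KO, 2534 bp in KI and 2509 bp in WT, at the start of Swsap1, a homologous recombination factor. It scored 210.74 in KO, 491.87 in KI and 280.48 in WT. At Ccdc151 and Prkcsh the scores were 321.41 in KO, 348.51 in KI and 298.13 in WT. All 3 lists also had peaks at Rab3d (217.32, 303.65 and 202.13 in KO, KI and WT), at Tmem205 and Ccdc159 (61.08, 81.46 and 90.37), inside Tmem205 (107.99, 111.09 and 74.72) and at Plppr2 (122.92, 116.92 and 92.94). KI alone had a peak of 107.3 inside Rab3d, 49061 bp from Epor. It was the peak nearest to the 50 kb limit. Just outside that limit, 51217 to 51255 bp from Slc4a1, all lists had a peak (221.31 in KO, 414.51 in KI and 294.53 in WT).

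Tfrc, on chromosome 16 from 32608896 to 32632794, had a peak over its start in every list. It was 917 bp wide in KO (score 125.22, percentile 70.6), 441 bp in KI (134.71, percentile 67.1) and 880 bp in WT (123.17, percentile 63.9). RefSeq gives Tfrc a pair of starts close together, and the peaks covered both. Tfrc was the only one of the 9 genes with a start peak in all 3 lists, and dividing cells of all kinds are known to use it. A second shared region inside the neighbour Tnk2, a non-receptor tyrosine kinase, scored 117.58 in KO, 101.1 in KI and 72.62 in WT. KI alone had a peak of 77.65 beside Tnk2, 10985 bp from Tfrc.

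Of the membrane genes, Sptb showed the difference in the other direction. It lies on chromosome 12 from 76580488 to 76710547, on the minus strand. KI had a peak from 76709719 to 76710436 (718 bp wide, score 147.8, percentile 70.5) and WT one from 76709804 to 76710351 (548 bp wide, score 161.94, percentile 76.8), 111 bp and 196 bp downstream of the start. The KO list had no peak there. Of the 4021 WT peaks that scored at least as high, 11 (0.274%) lacked a KO peak, and among the 8363 KI peaks at or above the KI score, 269 (3.22%) did. The counts of 11 and 269 each include the Sptb peak, whose own score set the cut. Among peaks of like rank (within 5 percentile points), 1.39% of WT and 14.4% of KI peaks lacked a KO peak. KO and KI shared a weak peak deep in the gene, 39547 bp from the start in KO (64.89, percentile 26.5) and 39556 bp in KI (53.72, percentile 6.5). KI had a further 2 weak body peaks (54.17 and 70.07), and outside the gene, near Plekhg3, KI had one of 55.58 and WT one of 55.88.

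Ank1 lies on chromosome 8 from 22974836 to 23150501 and is the longest of the 9 genes at 175666 bp. One region inside it, 53024 bp or more from its low-coordinate end, had a peak in all lists: 460 bp wide in KO (score 73.9, percentile 37.7), 1105 bp in KI (169.53, percentile 75.5) and 887 bp in WT (104.97, percentile 55.9). Ank1 has several alternative promoters, including an erythroid one, and was not in the promoter table, so this region was not assigned to any of them. KO alone had 2 body peaks near the calling threshold (54.9 and 52.24, percentiles 9.2 and 4.3). KI alone had 2 others, of score 77.25 and, 474 bp from the high-coordinate end, 83.45. KI also had peaks of 61.61 and 63.19 beyond that end. WT had no other peak within 50 kb.

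Slc4a1, on chromosome 11 from 102348820 to 102365281, was the 1 gene of the 9 with no body peak in any list. The peak nearest to it was a KI peak 9973 bp away (311 bp wide, score 93.0, percentile 49.8). All lists shared a region inside Ubtf, the RNA polymerase I factor (142.32 in KO, 208.11 in KI and 115.59 in WT). They also shared a pair of adjoining peaks at Slc25a39, a mitochondrial carrier, of score 86.15 and 83.63 in KO, 120.35 and 168.04 in KI and 81.92 and 110.7 in WT. KI alone had peaks at Ubtf (135.17) and Rundc3a (66.71).

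At both enzyme genes the mutants had a peak in the body or at its end that WT lacked. Alas2 lies on chromosome X from 150547417 to 150570622. KO had a peak from 150549633 to 150550114 (482 bp wide, score 97.67, percentile 57.2), 2216 bp downstream of the start, and KI one from 150549586 to 150550103 (518 bp wide, 86.55, percentile 45.7), 2169 bp downstream. The annotation of Apex2 also spans this stretch. Among KO peaks of like rank 22.3% lacked a WT peak, and among such KI peaks 61.7%. A region at Apex2 and Pfkfb1 was shared (101.37 in KO, 130.43 in KI and 73.31 in WT), and KI alone had a peak of 105.09 on the other side of Alas2, 35741 bp away.

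Car1, on chromosome 3 from 14766214 to 14808365, had a single region within 50 kb, at its high-coordinate end. The KO peak ran from 14808343 to 14808647 (305 bp wide, score 98.68, percentile 57.8) and the KI peak from 14808265 to 14808701 (437 bp wide, 74.89, percentile 36.1). WT had no peak within 50 kb of Car1. Among like-ranked peaks 21.7% of KO and 71.1% of KI peaks lacked a WT peak. The KI peak was not among the 17316 highest-scoring of its list, and the KO peak was.

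**Figure D3:**
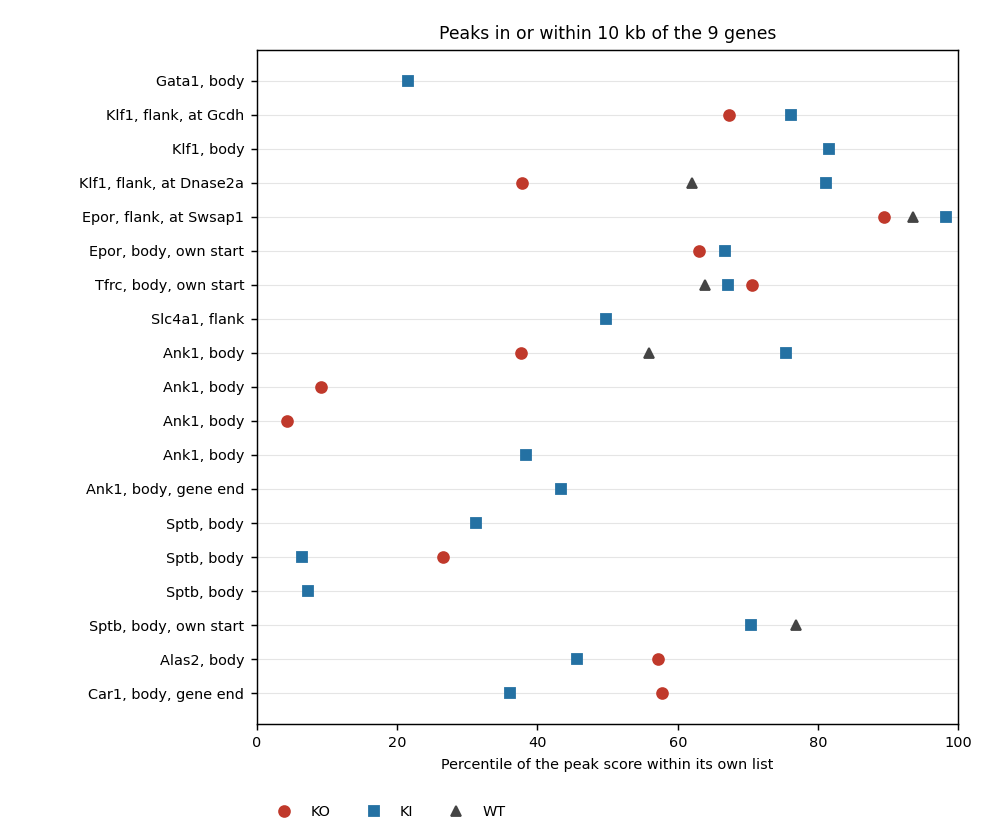
Percentile of each peak within its own list (horizontal axis) for every region in a gene body or within 10 kb of it, with KO, KI and WT marked by shape and colour. The KI peak in Klf1 stands at 81.6 with no KO or WT peak, the Sptb start peak at 70.5 in KI and 76.8 in WT with no KO peak, and several KO or KI body peaks of Ank1 and Sptb lie below 30.

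Set against WT, 8 of the 23 KO peaks around the 9 genes (34.8%) overlapped no WT peak, beside 32.4% of the whole KO list. In the other direction 2 of 17 WT peaks (11.8%) lacked a KO peak, beside 25.5% of the WT list. The KO share is thus close to that of the list. For KI it was 24 of 40 peaks (60%) without a WT peak, beside 46.5% of the KI list, and 1 of 17 WT peaks (5.88%) without a KI peak, beside 13.1%. In the equal-length lists 10 of 26 KI peaks lacked a WT peak, and no whole-list share was computed there. Between the mutants, 3 of 23 KO peaks (13.0%) lacked a KI peak, beside 16% of the KO list, and 20 of 40 KI peaks (50%) lacked a KO peak, beside 43.2%. The KI peaks without a WT peak had a median percentile of 37.8 and those with one 72.8, and in KO the medians were 41.8 and 67.7. Peaks without a WT counterpart thus ranked lower in their own list than those with one.

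As shares of their lists the peaks around the 9 genes made up 0.12% of KO (Wilson 95% interval 0.0799 to 0.18), 0.141% of KI (0.103 to 0.192) and 0.0982% of WT (0.0613 to 0.157). The intervals overlap, and they hold only the error of counting peaks.

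At gene starts the counts were smaller. A start peak lies within 1 kb of a RefSeq start or, without a promoter entry, of either annotated end. It was present in 3 of the 9 genes in KO (Epor, Tfrc and Car1), in 5 in KI (Epor, Tfrc, Ank1, Sptb and Car1) and in 2 in WT (Tfrc and Sptb). Of all 21887 genes, 9953 had a WT start peak, and 1028 of these lacked one in KO and 292 in KI. Among the other 11934 genes, 998 had one in KO and 1874 in KI. Of the 7 genes without a WT start peak, 2 had one in KO, beside 8.36% of all genes, and 3 in KI, beside 15.7%. These counts include Car1 in both mutants and Ank1 in KI, with peaks at the high-coordinate end. Neither gene had a promoter entry, so that end may not be its start. Of the 2 with a WT start peak, Sptb lacked it in KO, beside 10.3% of all genes, and neither lacked it in KI, beside 2.93%. The Klf1 and Alas2 peaks fell outside this window, since they began further downstream.

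Other red cell genes were taken from a list of 66, of which 65 were matched (Ahsp was not). Of the 26 without a WT start peak 5 had one in KO (19.2%) and 11 in KI (42.3%), 4 of them in both, against the same 8.36% and 15.7% of all genes. Of the 39 with a WT start peak 1 lacked it in KO (2.56%) and 1 in KI (2.56%), beside 10.3% and 2.93% of all genes. For body peaks, 7 of 22 in KO (31.8%) and 15 of 22 in KI (68.2%) had one where WT had none, beside 11.7% and 21.3% of all genes. These body counts were not repeated with equal-length lists, a minimum score or genes of like length. In the equal-length lists 3 genes in KO and 5 in KI had a start peak where WT had none, and 3 with a WT start peak lacked it in KI. Of all genes without a WT start peak in those lists, 6.82% had one in KO and 7.82% in KI, and of all genes with one 8.16% lacked it in KI.

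The groups of this list were unlike each other. Over all genes, 9953 of 21887 had a WT start peak, of which 10.3% lacked one in KO and 2.93% in KI. All 8 genes of iron uptake and storage and all 5 of erythropoietin and stem cell factor signalling had a WT start peak. KI lacked that of Stat5b, a signal transducer below EPOR (79.26 in KO and 84.74 in WT). Of the 12 transcription factors and cofactors, 8 had a start peak in KO, 9 in KI and 8 in WT. Gfi1b, a repressor needed for red cells and platelets, had one in KI alone (57.44). Among haem synthesis genes 9 of 10 had one in KO, 10 in KI and 8 in WT. Tspo2 had a peak in KI alone (73.38).

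Of 17 membrane and skeleton genes, 8 had a start peak in KO, 11 in KI and 5 in WT. Of the 12 without one in WT, 3 had one in KO (25%) and 6 in KI (50%), beside the 19.2% and 42.3% of the whole list. Kel, the Kell blood group protein, had one in KI alone (85.47). Among globin and cytosolic genes 5 of 13 had one in KO, 7 in KI and 5 in WT. Trim10 had one in KO (52.14) and KI (87.7), Hbb-bs, an adult beta-globin gene, in KI alone (70.42), and Trim58, a ubiquitin ligase of late red cell precursors, in KI (70.83) and WT (52.32). The Trim58 peaks of KI and WT did not overlap, and the WT peak stood at percentile 3.9, near the calling threshold. Trim58 was the 1 gene of the wider list with a WT start peak and none in KO. The alpha-globin genes Hba-a1 and Hba-a2, named here after their values were seen, had no start peak in any list. Reads of near-identical globin copies may not be placed uniquely.

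**Figure D4:**
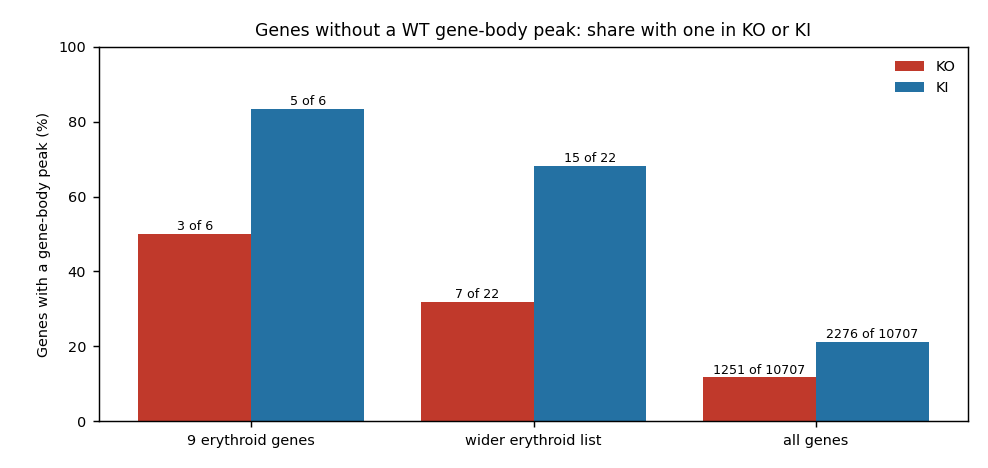
Share of genes without a WT gene-body peak that had one in KO or KI (vertical axis, percent, with the counts above the bars) for the 9 genes, the wider erythroid list and all genes. KO shows 3 of 6, 7 of 22 and 1251 of 10707 genes, and KI 5 of 6, 15 of 22 and 2276 of 10707.

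Marker genes of the labelled cell type and of other lineages were counted in the same way. Of 12 stem cell markers, 3 had a start peak in KO, 6 in KI and 7 in WT, where 9953 of all 21887 genes had one. Kit, Mecom and Hlf had one in all lists, Cd34 and Meis1 in KI and WT, Procr in WT alone, and Ly6a, Slamf1, Tek, Gata2 and Fgd5 in none. Of 6 megakaryocyte markers 3 had one in KO, 3 in KI and 1 in WT, of 6 granulocyte and monocyte markers 1, 3 and 1, of 5 B cell markers 0, 1 and 1, and of 5 T and NK cell markers none in any list. Of the 7 stem cell markers with a WT start peak 4 lacked it in KO and 1 in KI, beside 10.3% and 2.93% of all genes. Of the 5 megakaryocyte markers without one in WT 2 had one in KO and 2 in KI, and of the 5 such granulocyte and monocyte markers 0 and 2, beside 8.36% and 15.7% of all genes. Their part in the red cell gene peaks was not tested. In such bulk libraries a few cells with an open site and many cells with a slightly open one cannot be told apart.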

How the data were processed

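ATAC-seq was analysed in 3 libraries of sorted HSC, 1 each for KO, KI and WT. The 12 RNA-seq samples were not analysed here. Per the labels' protocols, 50000 cells entered a transposition of 30 min at 37 °C. The authors deposited 1 peak list per library with a score per peak. The peak names are those MACS writes, per the deposited files. Per the submitters' processing notes, CASAVA was run and positions refer to mm10. Not given in the sources used here are the aligner, MACS version, duplicate handling, transposase shift, control and filters, and the depth is unknown. A deeper library gives more weak peaks, which lengthens its list.

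Starts were read as 0-based and printed 1-based. All peaks were on the autosomes, X or Y. An overlap of 1 bp made a peak shared. Regions were merged over the 3 lists where peaks overlapped or touched. Genes and promoter windows came from RefSeq GRCm38.p6, and 17492 of 21887 protein-coding genes had a promoter entry. Calls were checked on simulated lists. Alternatives were flanks of 10 and 100 kb, a minimum score of 100, equal list size, 50% overlap, and start windows of 500 and 2500 bp. The body counts under the score and size settings were added after the data were seen. The 9 genes and the lists were chosen with earlier results of these data known. All peaks around the 9 genes are given. Of each group of the wider list, up to 3 genes whose start peak differed from WT were named, by the highest score. Python 3.11.15, pandas 2.3.3 and scipy 1.17.1 were used. Some genes of these lists are not reported here by name and remain in the counts.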

Additional observations from a re-analysis of the deposited data

How the results depend on the processing

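Peak presence near the calling threshold limits every count, and with lists of unequal and unknown depth the KI counts depend most on list length. No paired analysis was possible because each genotype had 1 ATAC-seq library. The 50% overlap was not run for merged regions, which have no such form. Under the alternative settings, the share of each whole list lacking a peak in another list was not computed. The counts of such peaks below thus have no genome-wide share beside them.

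At equal list size 26 KI peaks lay near the 9 genes, with 3 regions in KO and KI and 7 in KI alone. There 5 of 20 KO and 10 of 26 KI peaks lacked a WT peak and 8 of 26 KI peaks a KO peak. KI then had a body peak in 3 genes without one in WT (against 5), and the wider list had start peaks absent from WT in 3 genes in KO and 5 in KI, with 3 WT start peaks absent from KI. The cause is the shorter KO and KI lists. The Epor, Alas2 and Car1 body peaks in KO, the Klf1, Epor and Alas2 body peaks in KI and the absence of the Sptb start peak from KO stayed.

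With a minimum score of 100, 12 KO, 22 KI and 10 WT peaks remained. Regions numbered 6 in all lists, 4 in KI and WT, 6 in KI alone, 0 in KO alone and 0 in WT alone. KI peaks without a WT peak numbered 12 and without a KO peak 10, WT peaks without a KO peak 4 and without a KI peak 0, and KO peaks without a KI peak 0. Genes with a body peak absent from WT numbered 1 in KO and 2 in KI, and 2 had a WT body peak absent from KO. Of the 9 genes, 1 in KO and 1 in KI had a start peak absent from WT. The wider list had start peaks absent from WT in 4 genes in KO and 9 in KI. It had 2 WT start peaks absent from KO and 0 absent from KI.

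A flank of 10 kb left 11 KO, 17 KI and 5 WT peaks, with 4 regions in all lists, 7 in KI alone and 0 in WT alone. KI peaks without a WT peak were 12 and without a KO peak 8, and WT peaks without a KO peak 1 and without a KI peak 0. A flank of 100 kb gave 55 KO, 80 KI and 44 WT peaks. Regions were 36 in all lists, 11 in KO and KI, 4 in KI and WT, 6 in KO alone and 3 in WT alone. KO peaks without a WT peak were 17 and without a KI peak 7, KI peaks without a WT peak 39 and without a KO peak 32, and WT peaks without a KO peak 7 and without a KI peak 3. These follow from the window's size.

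With 50% overlap 2 WT peaks lacked a KI peak and 6 KO peaks a KI peak. With starts taken within 500 bp, 1 gene (Car1) had a start peak in KO absent from WT, and 0 genes of the wider list a WT start peak absent from KO. Within 2500 bp, KI had 5 such genes, and 0 genes of the wider list lost a WT start peak in KO. Genes of the wider list with a start peak absent from WT numbered 4 in KO and 11 in KI within 500 bp. Within 2500 bp they numbered 5 in KO and 10 in KI. At either window 1 gene of that list lacked its WT start peak in KI.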
